A study of Homo sapiens with 6 samples.

Results

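Integrins, laminins and collagens are the cell-surface receptors and the structural chains of the extracellular matrix. Their genes were taken from RNA-seq of MiaPaCa-2 cells, an established human pancreatic cancer line, by symbol: every protein-coding integrin, laminin and collagen chain whose normalized count averaged at least 5 over the 6 libraries. Of 60668 genes in the table, 77 had a matching symbol and 42 met this minimum: 12 integrins, 10 laminins and 20 collagens. The 12 integrins are treated as the receptors and the 30 laminins and collagens as the matrix chains. The smallest means just inside the minimum were those of ITGA7 (5.56), COL1A1 (6.46) and COL9A3 (7.11), and the largest just outside it were those of ITGA9 (4.55), ITGA2 (3.74) and ITGA2B (3.52).

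Unmodified MiaPaCa-2 cells from a commercial supplier were kept for 48 h in low glucose (2.5 mM, libraries av7, av8 and av9) or in control medium (25 mM, libraries av1, av2 and av3), with serum in both, and the question put to the data is which transcripts differ between the conditions. The control medium is described with added glutamine and plasmocin, which the description of the low-glucose medium does not mention. The labels give the same low-glucose treatment text to all 6 samples, while the titles and the design text separate 3 controls, and the titles were followed. The names av1 to av9 are column names: the labels tie av7 and av8 to low-glucose replicates 1 and 2, and the other 4 columns were assigned to a condition because the names form 2 runs of 3. The design text calls the samples biological replicates of a single cell line, so p-values measure the spread between these cultures only.

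The control libraries held 9741183 to 10190154 reads on genes and the low-glucose libraries 10595408 to 13733477, of which 0.371% to 0.402% lay on the 42 genes. Library av2 differed most from the other controls (chi-square per gene of 8.74 and 18.9, against 4.63 between av1 and av3 and 1.90 to 2.89 between low-glucose libraries), and it was the highest control library for 16 of the 24 members with a mean of at least 100. Calls that change without it are given with and without it. The epithelial keratins KRT8, KRT18 and KRT19 were abundant and lower in low glucose (log2 fold changes -1.01, -0.74 and -0.83). KRT8 had between 39759 and 46963 normalized counts in the control libraries against 20549 to 21782 in low glucose. KRT7 averaged only 6.78 and lay the other way (0.85, adjusted p of 0.211 in limma). EPCAM and CDH1 had at most 3 reads in any library. VIM, the mesenchymal intermediate filament, ranged from 57844 to 65874 in the controls and from 79311 to 82511 in low glucose. The mesenchymal marker ZEB1 averaged 654 and lay the other way (-0.17, adjusted p of 0.194 in limma), and CDH2 had no read. The 7 fibroblast and pericyte markers summed to between 29.1 and 53.5 normalized counts per control library and 46.2 to 50.02 in low glucose. DCN and THY1 had no read, 6 of the 7 had a mean under 5, and most of the sum was ACTA2. CDKN2A, which is deleted in this line, had no read in any library. The 4 endothelial markers summed to between 157 and 192 in the control libraries and 9.88 to 12.1 in low glucose, nearly all of it CDH5, which had the lowest log2 fold change of all genes tested (-3.92), while KDR had no read and PECAM1 at most 3. The 4 leukocyte markers summed to 30.1 to 52.4 and 13.6 to 21.2, with PTPRC and CD3E at 0 reads and CD14 lower (-1.19, adjusted p = 0.0196). The part of these keratin, VIM, CDH5 and CD14 differences in the results below was not tested. In bulk RNA, fewer cells with a transcript and less transcript per cell cannot be told apart.

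Integrins are pairs of an alpha and a beta chain that span the membrane, bind matrix proteins outside the cell and are coupled through adaptor proteins to the actin or keratin cytoskeleton inside it. Laminins are cross-shaped trimers of an alpha, a beta and a gamma chain that polymerize in basement membranes. Collagens are triple helices of 3 chains, some forming fibrils, others networks, microfibrils or membrane-bound forms, and their chains are hydroxylated, glycosylated and folded in the endoplasmic reticulum before secretion. Pancreatic tumours are known for a dense collagen-rich stroma, much of which is laid down by fibroblasts.

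Of the 42 members, 23 passed the test in low glucose against control, 13 of them higher and 10 lower. The test was limma on log2 normalized counts, with p-values adjusted over all 21101 genes tested and a threshold of 0.05. Over all genes tested 30.9% passed, 14.7% higher and 16.2% lower, and among the 16788 that averaged 5 or more the share was 37.7%, against 54.8% of the members. The libraries of the conditions did not overlap for 30 of the 42 members, 15 in each direction, where 50.8% of genes with a mean of at least 5 did not overlap. Expression level moves with these shares. Among members with a mean of at least 100, 66.7% passed against 48.0% of all genes at that level, and among members below 100 it was 38.9% against 22.0% of genes between 5 and 100. The log2 fold changes of the members ran from -2.18 to 1.89. Their median was 0.13, beside 0.05 over all genes tested and 0.02 over the 16788 that averaged 5 or more. The median of the absolute values was 0.37 for the members, 0.37 for all genes tested and 0.33 for those 16788. Without av2, 26 members passed, 16 higher and 10 lower (integrins 4 and 4, laminins 4 and 0, collagens 8 and 6). With no variance trend 15 passed, and COL4A2, COL18A1, COL27A1, ITGA6, ITGB5, ITGA10, ITGB7 and LAMB1 did not (adjusted p 0.0508 to 0.180).

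**Figure D1:**
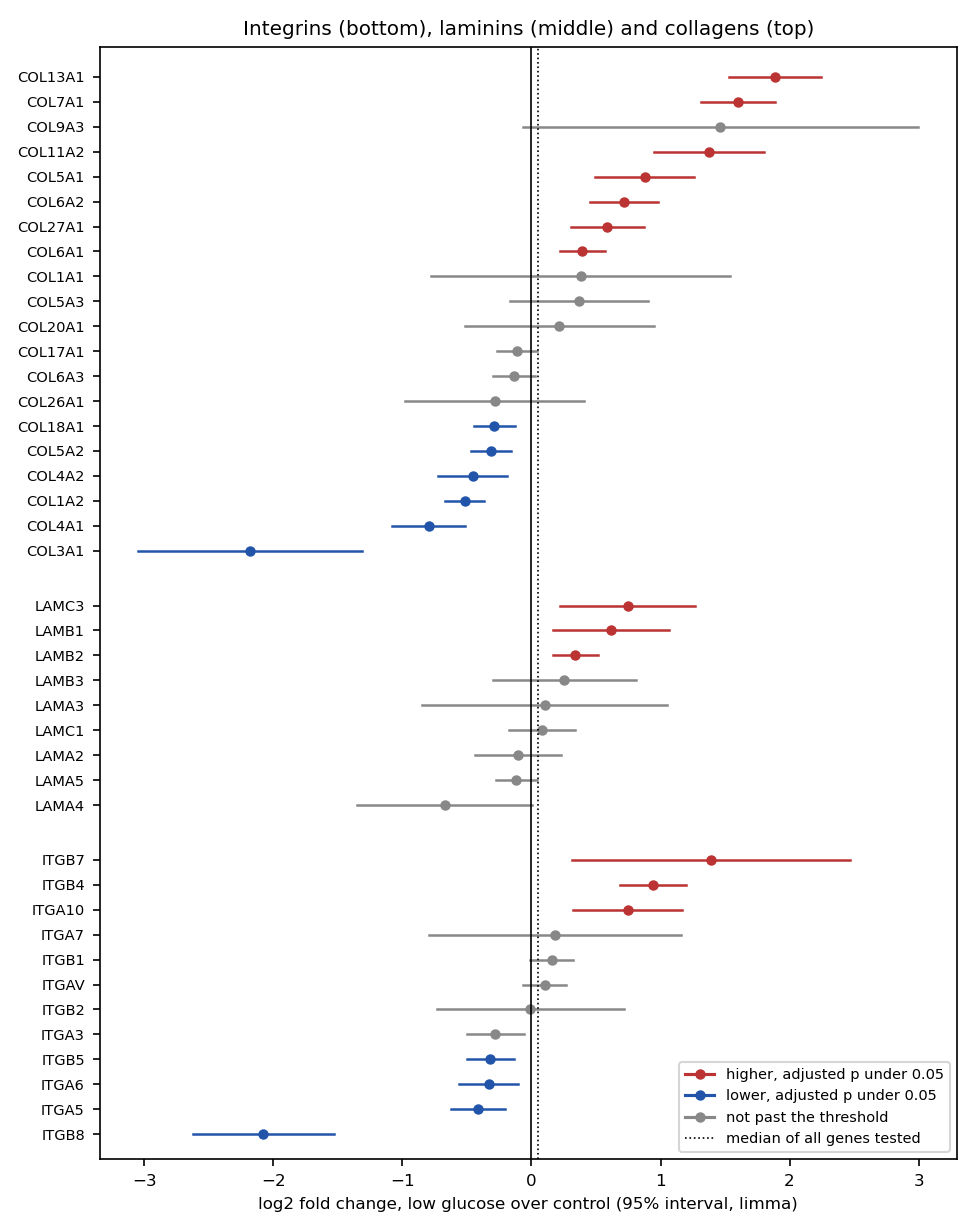
Log2 fold change of 41 of the 42 members in low glucose over control (x axis), with its 95% interval from limma, ordered within integrins, laminins and collagens. Red and blue points passed the threshold (13 higher, 10 lower), grey points did not, and the dotted line marks the median of all genes tested (0.05).

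Base composition differed in its median between members called higher and lower, a difference that was not tested. Single members departed from it: COL18A1, lower, had a GC content of 67.2%, and LAMB1, higher, 49.4%. The canonical transcripts of the 13 higher members had a median GC content of 61.3%, those of the 10 lower members 54.6% and those of the 19 others 59.5%, beside 49.4% for all genes with a mean of at least 5. When a trend with GC content was removed from each library, 24 members passed, 10 higher and 14 lower. In that fit ITGB7, LAMB1 and LAMC3 no longer passed, and ITGA3, LAMA5, COL6A3 and COL17A1 passed as lower. Scaling by library size in place of size factors moved the split over all genes from 3111 higher and 3417 lower to 3930 higher and 2645 lower, and that over the members to 14 higher and 9 lower.

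Among the receptors, the laminin-binding beta4 chain was higher in low glucose. The fibronectin receptor chain alpha5 was lower, as were beta5 and beta8, which pair with alphaV. Of the 12 integrins 7 passed, 3 higher (ITGB4, ITGA10, ITGB7) and 4 lower (ITGB8, ITGA5, ITGA6, ITGB5), with a median log2 fold change of 0.05. Scaling by library size or quantile normalization turned this split to 4 higher and 3 lower. Per transcript length, in TPM computed from the reads (transcript counts per length, scaled to a fixed total in each library), ITGB1 was the highest member of all, at 492 ± 14.96 in control and 536 ± 32.5 in low glucose (SD, n = 3), and ITGA3 was the next highest integrin at 187 ± 37.3 and 149 ± 1.68. ITGB4, ITGA6, ITGB5, ITGAV and ITGA5 lay between 13.7 and 64.1 TPM in either condition, and ITGA10, ITGB8, ITGB2, ITGB7 and ITGA7 at 3.08 TPM or less.

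ITGB8, a beta chain that pairs with alphaV and is known for releasing TGF-beta from its latent complex, showed the largest fall of the receptors. Its normalized counts were 66.1, 65.8 and 58.9 in control and 11.5, 13.8 and 18.2 in low glucose, so that every low-glucose library lay far below every control library. Its log2 fold change was -2.08 ± 0.25 (SE), with an adjusted p of 2.83e-05. ITGB5, another beta chain that pairs with alphaV, forms a vitronectin receptor with it. It stood at 515, 537 and 507 in control and at 400.2, 418 and 432 in low glucose, a smaller fall without overlap (-0.32 ± 0.09, adjusted p = 0.0111, and 0.0639 without av7). ITGAV itself, the alpha chain of both, had 764, 746 and 717 in control and 771, 798 and 821 in low glucose. These values did not overlap either and lay the other way, with a log2 fold change of 0.10 that did not pass (adjusted p = 0.357). After quantile normalization ITGAV passed as higher (adjusted p = 0.0408).

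ITGB4 encodes the long-tailed chain of the hemidesmosome, which joins laminin to keratin filaments through plectin. It had 1004, 1422 and 954 normalized counts in control and 2153, 2171 and 2069 in low glucose. The control libraries were spread more widely than the low-glucose ones, with av2 highest, and all 3 stayed below the low-glucose libraries (log2 fold change 0.94 ± 0.12, adjusted p = 3.76e-05). ITGA6 is the only alpha chain with which beta4 is known to pair. Its counts of 786, 897 and 655 in control and 622, 585 and 634 in low glucose moved in the other direction (-0.33 ± 0.11, adjusted p = 0.0260). The call on ITGA6 was not stable: it was lost without av1, av7, av8 or av9 (adjusted p 0.0772 to 0.123), under scaling by library size (0.0716), after quantile normalization (0.0925) and with no variance trend (0.153).

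ITGB1, the common beta chain of the collagen, laminin and fibronectin receptors, had 10171, 10084 and 10097 normalized counts in control and 10955, 10977 and 11941 in low glucose. The low-glucose libraries all lay above the controls, by a log2 difference of 0.16 ± 0.08 that did not pass (adjusted p = 0.143). It passed at 0.24 with library size scaling (adjusted p = 0.0258) or quantile normalization (0.0355), and at 0.15 without av2 (0.0340). ITGA3, the alpha chain of the laminin receptor alpha3beta1, had 4602, 6037 and 4424 in control and 4055, 4151 and 4084 in low glucose. Its log2 fold change of -0.28 ± 0.10 lay at the threshold (adjusted p = 0.0504). It was -0.14 without av2 (0.0568) and -0.08 after quantile normalization (0.617), and it passed in 6 of 18 alternatives, without av3 among them (-0.36, adjusted p = 0.00670).

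ITGA5, the alpha chain of the fibronectin receptor alpha5beta1, had 400.2, 466 and 446 in control and 312, 324 and 347 in low glucose, without overlap (-0.41 ± 0.10, adjusted p = 0.00455). ITGA10, a collagen-binding alpha chain known mainly from cartilage, had 63.9, 41.2 and 54.6 in control and 77.0, 97.8 and 92.4 in low glucose (0.75 ± 0.20, adjusted p = 0.00997, but 0.0646 without av8 and 0.0578 without av9). It was the only collagen-binding alpha chain above the minimum: ITGA1, ITGA2 and ITGA11, the other alpha chains that bind collagen, averaged 0.49, 3.74 and 2.35 normalized counts. ITGB7, a leukocyte integrin chain, was barely expressed, at 6.73, 6.69 and 2.14 in control and 25.0, 12.8 and 8.33 in low glucose (1.39 ± 0.50, adjusted p = 0.0483). Without av1, av3, av7, av8 or av9 its adjusted p was 0.0502 to 0.247. It shares 1881 bases of exon with ZNF740 on the opposite strand, which averaged 406 normalized counts against 10.3 for ITGB7. The sources used here do not say whether reads were counted by strand. ITGB2 and ITGA7 stayed under 30 counts in every library, with adjusted p of 0.988 and 0.801.

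**Figure D2:**
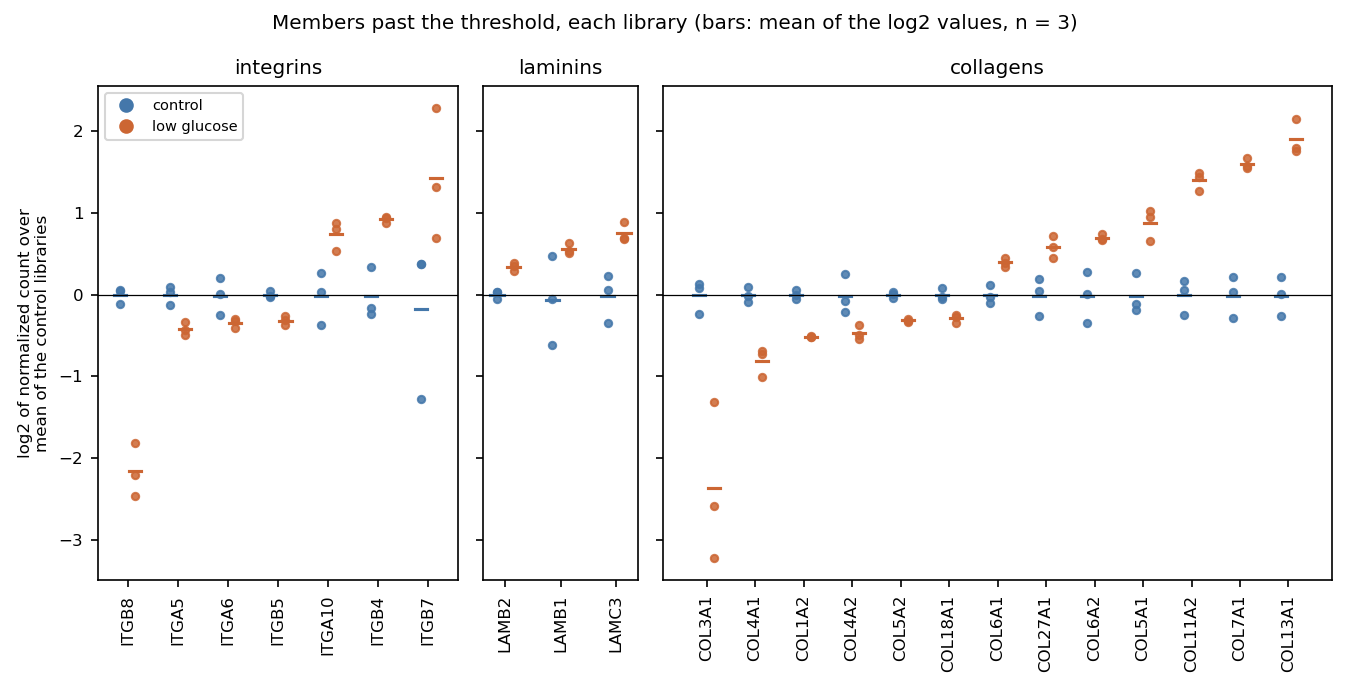
Normalized counts of the 23 members that passed the threshold, each library as a point on a log2 scale relative to the mean of the control libraries (blue: control, orange: low glucose), with bars at the mean of the log2 values (n = 3). The 2 conditions do not overlap for any of these genes. By the bars, ITGB8 and COL3A1 lie lowest and COL13A1 and COL7A1 highest in low glucose. The av7 point of ITGB7, a gene with few reads, lies above all points of COL13A1 and COL7A1.

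Among the laminins, 2 of 3 beta chains (LAMB2 and LAMB1) and 1 of 3 gamma chains (LAMC3) were higher in low glucose, and 0 of the 10 laminins were lower (median log2 fold change 0.18). The 3 that passed are 30% of the laminins, a share near the 30.9% of all genes tested and below the 37.7% of genes with a mean of 5 or more. By unadjusted p in limma, and in edgeR (9 tested) and DESeq2, 0 were lower as well. This rests on few libraries: LAMB2 alone passed when av1, av7, av8 or av9 was left out, and DESeq2 also called LAMB2 alone. Quantile normalization called 2 higher (LAMB2 and LAMC1) and 1 lower (LAMA4), and removal of the GC trend 1 higher and 1 lower (LAMA5). LAMB2, the beta2 chain of laminin-521, had 573, 541 and 574 normalized counts in control and 684, 716 and 734 in low glucose, without overlap (0.34 ± 0.08, adjusted p = 0.00534). LAMB1, the beta1 chain of laminin-111 and laminin-511, had 96.4, 139 and 65.3 in control and 145, 142 and 155 in low glucose (0.62 ± 0.21, adjusted p = 0.0378). The control library av2 nearly reached the low-glucose values, and the adjusted p of LAMB1 was 0.103 to 0.150 without av1, av3, av7, av8 or av9. LAMB1 shares 300 bases of exon with DLD on the opposite strand, whose mean was 1140 against 124. LAMC3, a gamma chain of low abundance here, had 20.2, 30.1 and 26.7 in control and 41.4, 47.4 and 40.9 in low glucose (0.74 ± 0.24, adjusted p = 0.0311, and 0.0785 to 0.125 without av1, av7, av8 or av9).

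The most abundant laminin chains differed little in the main fit. LAMC1, the gamma1 chain shared by most laminins, had 1490, 2058 and 1374 normalized counts in control and 1698, 1639 and 1798 in low glucose, so that the control library av2 lay above all 3 low-glucose libraries and the other 2 controls below them. Its log2 fold change was 0.08 (adjusted p = 0.645), and 0.26 without av2 (adjusted p = 0.00362). LAMC1 also passed as higher after quantile normalization. LAMA5, the alpha chain of laminin-511 and laminin-521, had 1302, 1404 and 1373 in control and 1270, 1232 and 1258 in low glucose. These did not overlap and did not pass (-0.12, adjusted p = 0.251). LAMA5 shares 244 bases of exon with ADRM1 on the opposite strand, whose mean was 1790 against 1310. Per length LAMC1 stood at 37.7 TPM in control, LAMA5 at 21.6 and LAMB2 at 17.9. LAMB1 stood at 3.25 TPM in control and 4.63 in low glucose, and the means of the other laminins lay below 2 TPM.

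Laminin-332, the epithelial laminin bound by alpha6beta4 and alpha3beta1, contains the LAMA3 and LAMB3 chains, which were low in both conditions. LAMB3 had 44.8, 27.9 and 34.2 in control and 31.7, 44.5 and 52.3 in low glucose (0.26, adjusted p = 0.499). LAMA3 had 8.97, 6.69 and 5.35 against 4.81, 7.90 and 10.6 (0.10, adjusted p = 0.890). The libraries overlapped for both chains, and their standard errors of 0.26 and 0.44 on the log2 scale leave a difference of the size seen for LAMB2 undetectable at this depth. LAMA4 and LAMA2 had log2 fold changes of -0.67 and -0.10, with adjusted p of 0.126 and 0.660, and quantile normalization called LAMA4 lower (-0.96, adjusted p = 0.0370).

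The collagens moved in both directions, with a median absolute log2 fold change of 0.49 beside 0.33 for the integrins and 0.25 for the laminins. Over all genes with a mean of at least 5 it was 0.33. Membrane-bound COL13A1, anchoring-fibril COL7A1, the fibrillar chains COL11A2, COL5A1 and COL27A1 and the type VI chains COL6A1 and COL6A2 were higher, while COL3A1, COL4A1, COL4A2, COL1A2, COL5A2 and COL18A1 were lower. Of the 20 collagens 13 passed, 7 higher and 6 lower, with a median log2 fold change of 0.29. The split was 7 and 6 with library size or TMM scaling, 7 and 4 after quantile normalization and 7 and 8 with the GC trend removed. Per length, COL5A2 was the highest at 219 ± 12.1 TPM in control and 171 ± 2.90 in low glucose, followed by COL1A2 at 98.7 ± 6.78 and 67.3 ± 0.859. COL17A1, COL18A1, COL6A1, COL6A3 and COL6A2 lay between 25.7 and 75.6 TPM in either condition, and the mean of no other collagen exceeded 11.2 TPM.

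COL13A1, a collagen that spans the plasma membrane and sits at sites of adhesion, had the largest rise of the members. Its normalized counts were 61.7, 44.6 and 53.5 in control and 179, 235 and 184 in low glucose, all far above the controls (1.89 ± 0.17, adjusted p = 1.76e-06). COL7A1, which forms the anchoring fibrils that tie basement membrane to the tissue beneath, had 111, 89.2 and 126 in control and 323, 346 and 316 in low glucose (1.60 ± 0.13, adjusted p = 1.02e-06). These were the smallest adjusted p-values of the members, and both calls held under all 18 alternative fits. COL17A1, the other membrane-spanning collagen above the minimum, is a part of the hemidesmosome. It had 2296, 2366 and 2345 in control and 2224, 2068 and 2195 in low glucose, without overlap. It did not pass (-0.11, adjusted p = 0.259, and 0.0471 at -0.20 with the GC trend removed).

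Because COL13A1 and COL7A1 rose most, the 150 bases before their RefSeq starts (GRCh38.p14) are shown, 5′ to 3′ on the gene's own strand. The COL13A1 stretch is chr10:69801756-69801905 on the plus strand and the COL7A1 stretch is chr3:48595330-48595479 on the minus strand. Capitals mark GGGCGG, the GC box, on either strand, and would mark CCAAT, which neither stretch holds.
COL13A1: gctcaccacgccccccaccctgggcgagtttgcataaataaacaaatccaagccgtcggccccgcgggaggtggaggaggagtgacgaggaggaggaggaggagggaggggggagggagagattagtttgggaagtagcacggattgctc
COL7A1: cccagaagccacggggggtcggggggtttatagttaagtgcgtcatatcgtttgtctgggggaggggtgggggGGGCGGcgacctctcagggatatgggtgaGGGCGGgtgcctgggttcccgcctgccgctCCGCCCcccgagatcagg
The COL7A1 stretch holds 3 GC boxes and the COL13A1 stretch none.

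Type IV collagen is the network of basement membranes, built in most tissues from alpha1 and alpha2 chains in the ratio 2 to 1. Both of its genes above the minimum fell. COL4A1 had 184, 208 and 194 normalized counts in control and 97.2, 119 and 121 in low glucose (-0.80 ± 0.13, adjusted p = 0.000375). COL4A2 had 275, 348 and 251 in control and 207, 199 and 224 in low glucose (-0.46 ± 0.13, adjusted p = 0.0127, and 0.0627 and 0.0693 without av7 and av8). The groups did not overlap for either gene. The 2 genes lie head to head on chromosome 13, and their RefSeq starts at positions 110307157 and 110307284 are 127 bases apart, so a single short stretch precedes both. It is shown because both genes moved the same way. The interval between the starts is chr13:110307158-110307283 (GRCh38.p14, plus strand), with COL4A1 read leftward from its first base and COL4A2 rightward from its last, and capitals mark CCAAT and GGGCGG.
COL4A1 and COL4A2: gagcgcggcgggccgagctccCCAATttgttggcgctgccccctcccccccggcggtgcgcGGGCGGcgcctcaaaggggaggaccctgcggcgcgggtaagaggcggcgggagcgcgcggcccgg
The 126 bases hold 1 CCAAT box and 1 GC box and are 80.2% G or C. The other type IV chains, COL4A3, COL4A4, COL4A5 and COL4A6, averaged 0.60 to 2.93 normalized counts.

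The fibrillar collagens split by chain. COL3A1, the homotrimer of reticular fibres, fell most of all members: 30.3, 39.0 and 37.4 in control and 3.85, 5.93 and 14.4 in low glucose (-2.18 ± 0.40, adjusted p = 0.000909). The 3 low-glucose libraries rested on only 4, 6 and 19 reads and differed more among themselves than the controls did. COL1A2, a chain of type I collagen, had 2745, 2872 and 2647 in control and 1933, 1916 and 1924 in low glucose (-0.52 ± 0.07, adjusted p = 8.24e-05). Its usual partner COL1A1 stood at 4.48, 7.80 and 3.21 in control and 13.5, 2.96 and 6.82 in low glucose (0.38, adjusted p = 0.643). Type I collagen is usually made of alpha1 and alpha2 chains in the ratio 2 to 1, and here the per-length ratio of COL1A1 to COL1A2 was between 0.00104 and 0.00598 in the 6 libraries.

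Type V collagen showed opposite changes of its chains. COL5A2 had 8289, 8400 and 7982 normalized counts in control and 6688, 6537 and 6584 in low glucose (-0.32 ± 0.07, adjusted p = 0.00427, and 0.125 after quantile normalization). COL5A1, the chain with which it usually assembles, had 54.9, 52.4 and 71.7 in control and 121, 93.8 and 115 in low glucose (0.88 ± 0.18, adjusted p = 0.00181). Neither gene's groups overlapped, and COL5A3 had a log2 fold change of 0.37 with an adjusted p of 0.295. COL11A2, a chain of the type XI collagen of cartilage fibrils, rose from 26.9, 35.7 and 33.2 to 89.5, 85.9 and 76.5 (1.37 ± 0.20, adjusted p = 0.000120), while COL11A1 had at most 2 reads in any library. COL27A1, another minor fibrillar chain, had 184, 149 and 204 in control and 267, 294 and 244 in low glucose (0.59 ± 0.13, adjusted p = 0.00328, and 0.0508 with no variance trend).

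Type VI collagen forms beaded microfibrils from alpha1, alpha2 and a longer chain. COL6A2 had 382, 589 and 490.02 in control and 816, 778 and 772 in low glucose (0.72 ± 0.12, adjusted p = 0.000518). COL6A1 had 888, 930 and 1035 in control and 1242, 1300 and 1203 in low glucose (0.39 ± 0.08, adjusted p = 0.00203). COL6A3, the long chain, had 1863, 1957 and 1712 in control and 1678, 1657 and 1703 in low glucose, which lay the other way without passing (-0.13, adjusted p = 0.206, and 0.0404 at -0.23 with the GC trend removed). COL18A1, the basement membrane collagen whose end is released as endostatin, fell from 1707, 1834 and 1684 to 1467, 1370 and 1437 (-0.29 ± 0.07, adjusted p = 0.00846). That call was lost without av8 (0.0647) and after quantile normalization (-0.09, adjusted p = 0.369). COL18A1 shares 1563 bases of exon with SLC19A1 on the opposite strand, which averaged 77.4% of its normalized count.

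The remaining collagens were low and did not pass. COL9A3 had 4.48, 7.80 and 0 in control and 4.81, 8.89 and 16.7 in low glucose (1.46, adjusted p = 0.138, and 0.0174 without av2), and it shares 155 bases of exon with TCFL5 on the opposite strand, which averaged 502 against 7.11. COL20A1 and COL26A1 had log2 fold changes of 0.22 and -0.29 with adjusted p of 0.680 and 0.552. Of the 35 family genes below the minimum, 10 had no read in any library (ITGA8, ITGB3, LAMB4 and 7 collagens). Of the 15 of them with a mean of at least 1, 0 passed limma, the smallest adjusted p being 0.114, and 1 had an unadjusted p under 0.05 (ITGA4, at 0 to 5 reads per library). DESeq2 called 0 of them, and the read filter of edgeR left all 15 out.

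**Figure D3:**
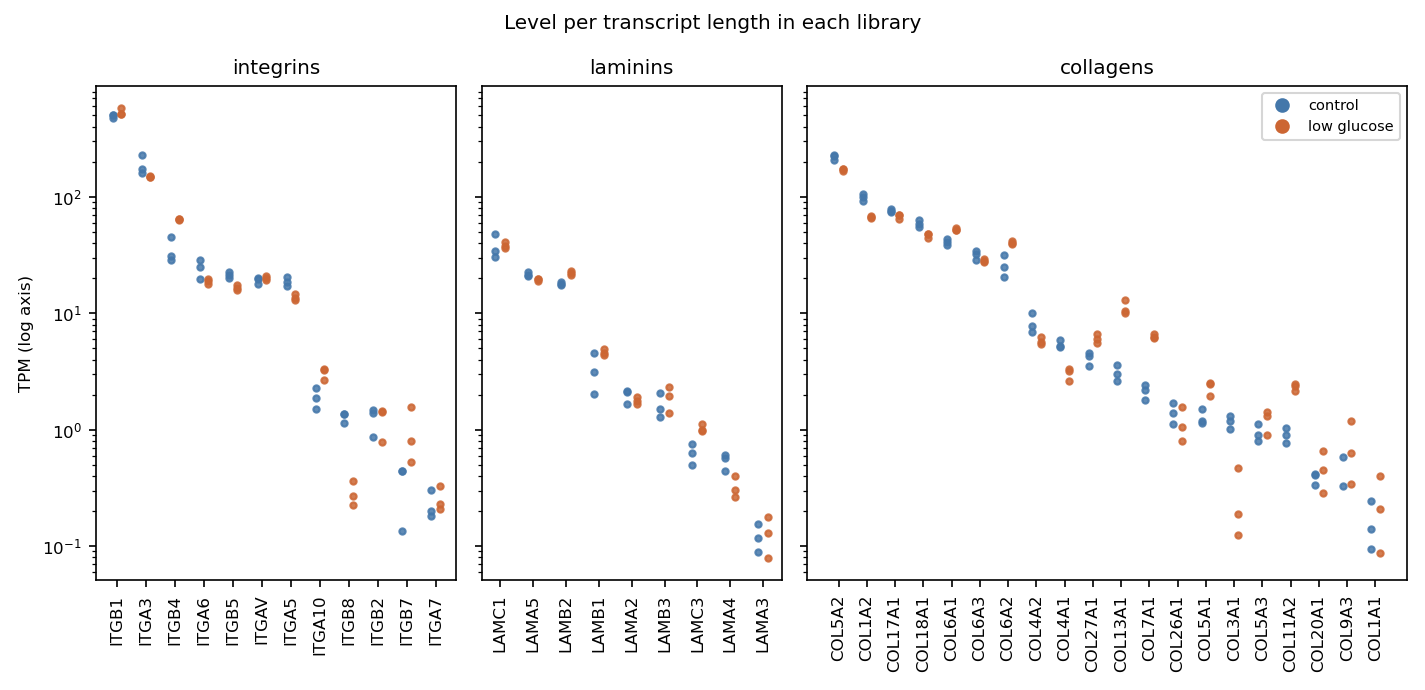
Level of 41 of the 42 members in each library in TPM on a log axis, in order of the control mean within each family (blue: control, orange: low glucose). ITGB1, COL5A2 and ITGA3 lead, and the av3 value of COL9A3, which is 0, is not drawn.

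Set side by side, receptors and matrix chains passed at similar shares, 58.3% of 12 integrins and 53.3% of 30 matrix chains, beside 37.7% of all genes with a mean of at least 5. Of the receptors 3 were higher and 4 lower, of the matrix chains 10 higher and 6 lower. The median log2 fold changes were 0.05 and 0.23, and no test of the difference between the families was made. Absolute log2 fold changes of at least 1 among those that passed were found for 2 integrins (ITGB8, ITGB7) and 4 matrix chains (COL3A1, COL11A2, COL7A1, COL13A1), all of them under 350 normalized counts in every library. Summed over members, integrin transcripts took 802 ± 65.1 TPM in control and 824 ± 35.7 in low glucose, with overlap. Matrix chains took 659, 711 and 627 TPM in control and 609, 595 and 616 in low glucose, without overlap. Within them the collagen sum was 576, 613 and 551 TPM against 520, 508 and 521, and the laminin sum 85.8 ± 11.5 against 90.1 ± 4.001. COL5A2 and COL1A2, both lower, made up the largest part of the collagen sum, and the collagens that rose most were small parts of it.

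The ratios of chains that assemble with each other were compared next. Of 15 pairs from a list of known complexes, 11 had both chains among the members. In 7 of these the log2 ratio of the chains did not overlap between the conditions. The list did not hold every pair of members that assemble. ITGAV with ITGB8, whose own log2 fold changes were 0.10 and -2.08, and LAMB2 with LAMC1 were not on it, and their ratios were not computed. No share over other gene pairs was computed, and among single genes with a mean of at least 5 the share was 50.8%. With 3 libraries against 3, the exact permutation test (two-sided) cannot give a p below 0.1, which each of the 7 reached, and adjusted over the 11 pairs it is 0.157. The ratio of ITGA6 to ITGB4 was -0.35, -0.66 and -0.54 on the log2 scale in control and -1.79, -1.89 and -1.71 in low glucose. This difference of -1.28 took the per-length ratio from 0.709 ± 0.0777 to 0.292 ± 0.0189. ITGAV to ITGB5 went the other way, by 0.42, from a per-length ratio of 0.901 to 1.21. Against ITGB1, the ratio was lower in low glucose by 0.57 for ITGA5 and by 0.44 for ITGA3.

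Among the matrix pairs compared, COL5A1 to COL5A2 differed most, from a log2 ratio of -7.12 ± 0.28 to -5.92 ± 0.18. COL5A1 stayed far below COL5A2 in both conditions. COL4A1 to COL4A2 differed by -0.34, from a per-length ratio of 0.670 ± 0.0847 to 0.527 ± 0.0614, with COL4A1 below COL4A2 in every library. LAMB1 to LAMC1 differed by 0.54. The other 4 pairs overlapped: LAMA5 to LAMC1 (difference -0.20, exact p = 0.4), COL6A1 to COL6A2 (-0.32, exact p = 0.2), COL1A1 to COL1A2 (0.94, exact p = 0.3) and LAMA3 to LAMB3 (-0.15, exact p = 0.5). Pairs that share ITGB1 or LAMC1 are not independent of each other.

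**Figure D4:**
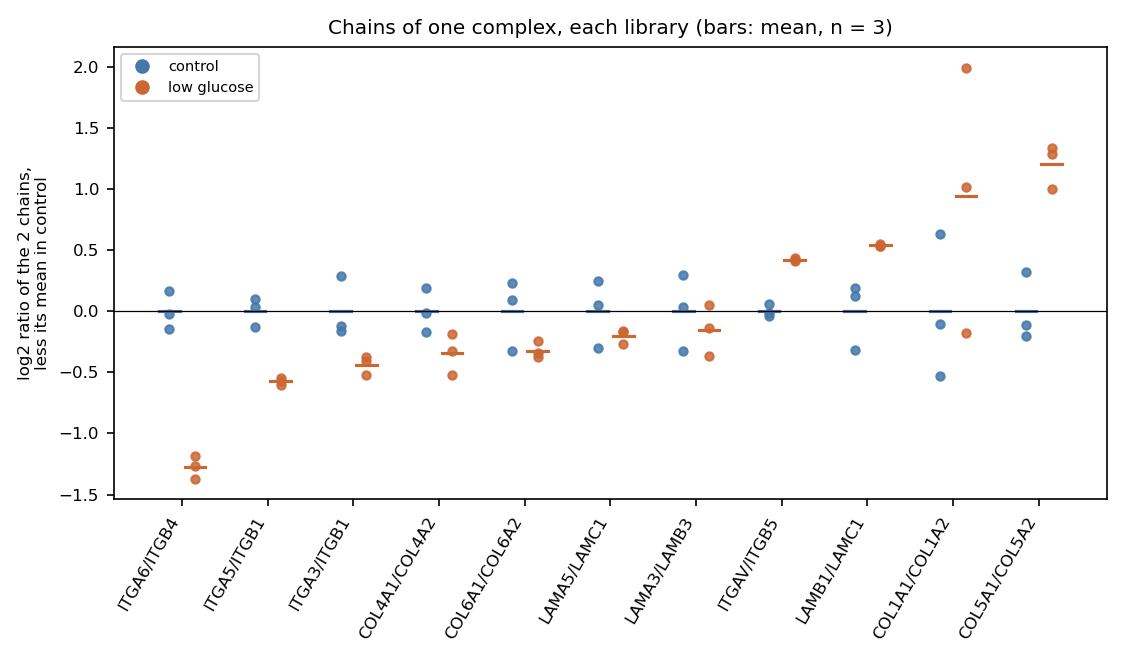
Log2 ratio of the normalized counts of 2 chains of a complex in each library, less its mean in control (blue: control, orange: low glucose, bars: mean, n = 3). Among the pairs drawn, ITGA6/ITGB4 lies lowest (difference -1.28) and COL5A1/COL5A2 highest (1.21) in low glucose. COL1A1/COL1A2 is the most scattered, with few reads for COL1A1. ITGAV/ITGB8 was not on the list and is not drawn.

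Neighbouring members did not always move together. Of the 11 pairs within 1000000 bases of each other, COL3A1 and COL5A2, convergent genes 19151 bases apart on chromosome 2, were both lower, and COL6A1 and COL6A2, 93061 bases apart on chromosome 21, were both higher. COL18A1, 468049 bases from COL6A1, was lower. ITGA3 and COL1A1, 93619 bases apart on chromosome 17, did not pass.

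RefSeq promoters, from 250 bases before to 50 after each start, were matched for 29 of the 42 members. GGGCGG was found on either strand in 19 of them (65.5%), beside 44.6% of all 27305 promoters. CCAAT was found in 6 (20.7%, against 35.7%) and CCACG in 10 (34.5%, against 37.9%). The endoplasmic reticulum stress element, CCAAT and CCACG with 9 bases between, was found in 0 members and in 0.0806% of all promoters, TGACGTCA in 0 members (1.98% of all) and TGANTCA in ITGA5 and LAMA3 (6.9%, against 7.76%). CCAAT is contained in the stress element, and these are letter matches in a fixed window only.

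Genes of the same pathways moved unevenly. Shares that passed are to be read beside the 30.9% of all genes tested. Expression level matters here too, because most tested genes averaged over 100 normalized counts in every list except the other matrix ligands and linkers. At that level 48.0% of all genes passed, 1822 higher and 3049 lower, with a median log2 fold change of -0.08. The adaptor and receptor shares below lay close to that value. Of 34 tested genes for integrin adaptors and focal adhesions, 47.1% passed, 2 higher and 14 lower, and 18 did not. Their median log2 fold change was -0.14, beside 0.05 over all genes and -0.08 over those averaging 100 or more. VCL, the actin linker vinculin, fell from 6650 ± 938 to 3145 ± 203 normalized counts (SD, n = 3, -1.07, adjusted p = 2.05e-06), and the actin crosslinkers ACTN4 (-0.91) and ACTN1 (-0.76) fell next most. LIMS2 (0.68) and SHARPIN (0.30) were the 2 that rose. Other matrix receptors had 0 higher and 6 lower of 13 tested (46.2%, median -0.20), with 0 higher also by unadjusted p and in edgeR (12 tested) and DESeq2. The falls were led by the syndecan SDC4 (-1.08), the glypican GPC1 (-0.59) and SDC1 (-0.50).

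Enzymes and chaperones of collagen modification and secretion moved both ways, 11 higher and 7 lower of 30 tested (60%), with a median of 0.00. Most of them averaged over 100 normalized counts, and at that level 48.0% of all genes passed. The highest were the procollagen protease ADAMTS14 (1.37), MIA2, which helps load large cargo for export (1.19), and the prolyl isomerase FKBP14 (1.10). The lowest were the lysyl hydroxylase PLOD2 (-1.31), the collagen galactosyltransferase COLGALT1 (-0.99) and P3H4 (-0.59). ADAMTS14 and PLOD2 had at most 41 reads in any library. Other matrix ligands and linkers had 1 higher, LTBP1 (1.201), and 3 lower of 16 tested, TGFB1 (-0.40), LTBP3 (-0.38) and the basement membrane proteoglycan HSPG2 (-0.35). This is 25.0% of them, below the share of all genes, with a median of -0.14. LTBP1 had 14 to 59 reads per library. FN1, the fibronectin bound by alpha5beta1, averaged 16.6 ± 12.1 in control and 32.3 ± 13.1 in low glucose and did not pass (adjusted p = 0.0877). Of 14 tested matrix metalloproteases, ADAM proteases and inhibitors, 3 were higher and 6 lower (64.3%, median -0.18). This share too is to be read beside the 48.0%, as most of the 14 averaged over 100. Those higher were the membrane-bound collagenase MMP14 (1.75), MMP19 (1.36) and ADAM17 (0.36). Falls were largest for MMP1, the interstitial collagenase (-1.86), MMP15 (-0.77) and ADAM9 (-0.46). MMP1, MMP14 and MMP19 rested on few reads, 5 to 89 per library.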

How the data were processed

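RNA of MiaPaCa-2 cells after 48 h (3 low-glucose and 3 control samples) was made by the authors into strand-specific libraries and mapped to hg38 with STAR (2.7.0e per the submitters' processing notes, which also name DESeq2). RSEM is among the software the study lists, but which tool counted these reads, its strand setting and its annotation are not given in the sources used here. The values deposited by the authors are a signal, namely gene counts after division by 1 size factor per library, here called normalized counts. All of them were multiples of what 1 read is worth in that library (100% within 0.01), so reads were recovered. Of the identifiers, 99.5% matched Gencode v44, whose canonical transcripts gave lengths, GC content and TPM. No column was left without a sample or group (0 columns).

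Log2(value + 1) was fitted with limma 3.58.1 (R 4.3.3; lmFit, eBayes with trend) over 21101 genes averaging 1 or more, two-sided, with Benjamini-Hochberg adjustment and a threshold of 0.05. Ratios of chains were compared with exact permutation tests (scipy 1.17.1). Members, lists and tests were chosen with earlier results of these data known. Each member that passed is named, and 1 member, counted in the totals, is not reported here by itself. Values per library are given for the 5 integrins, 4 laminins and 8 collagens with the largest changes that passed (only 3 laminins passed), for the 3 members with a mean over 3000 and for the chains of each pair, and a few others were added after their values were seen. From each list the 3 highest and 3 lowest that passed are named, and FN1 was added afterwards. The alternatives were scaling by library size, TMM or quantiles, no filter on low values, a minimum mean of 5, a minimum of 10 reads in every library, a pseudocount of 0.1, no variance trend, edgeR 4.0.16 (quasi-likelihood) and DESeq2 1.42.0 on the recovered reads, removal of a length or GC trend (loess, span 0.3, genes with a mean of at least 10), a minimum absolute log2 fold change of 1, and leaving out each library. The fits were tested on simulated data. Depth (9741183 to 13733477 reads) and 3 libraries per condition set the precision. Tables and figures were made with pandas 2.3.3 and matplotlib 3.10.9.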

Additional observations from a re-analysis of the deposited data

How the results depend on the processing

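Of the 23 members that passed, 13 kept their call and direction under all 18 alternative fits. Another 10 lost the call under at least 1, and 0 changed direction. The 18 are 12 with all libraries and 6 leaving out a library (17 for COL3A1, which the minimum of 10 reads left out). The minimum absolute log2 fold change of 1 is not counted among them. Of 18 members that had not passed, 9 passed under at least 1 of these fits. The count of members that passed was 16 to 26 with a library left out, 15 with no variance trend and 6 when the absolute log2 fold change had to reach 1. For integrins it was 4 to 8 with a library left out (4 without av7, av8 or av9), 3 with no variance trend and 2 at that fold. For laminins it was 1 to 4 with a library left out, 1 with DESeq2 and 0 at that fold, and for collagens 4 at that fold. Over all genes 6528 passed in limma and 4090 with no variance trend. The cause of these changes was not tested, except that leaving out a library tests fewer samples and the minimum fold adds a criterion.

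Changes of direction were found only among members that had not passed, 9 in all. After quantile normalization the log2 fold changes were 0.087 for COL6A3, 0.10 for COL17A1, -0.062 for COL20A1, -0.13 for ITGA7, 0.057 for LAMA5 and -0.23 for LAMA3. ITGB2 was at 0.068 with library size scaling, 0.0025 with TMM, 0.049 with edgeR and 0.019 with DESeq2. With a library left out the range was -0.21 to 0.26 for ITGB2, -0.060 to 0.52 for COL20A1, -0.079 to 0.86 for COL1A1, -0.034 to 0.26 for LAMC1 and -0.13 to 0.37 for LAMA3. Of these 9 genes 5 averaged under 25 normalized counts and 4 (LAMA5, LAMC1, COL6A3 and COL17A1) 1306 to 2249. No paired analysis was possible because the labels give a replicate number for 2 of the 6 columns only.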
